A study of Mus musculus with 26 samples.

Results

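The solute carriers are membrane proteins that move sugars, amino acids, nucleosides, ions, metals and metabolites across the cell surface and the membranes of organelles. Here their messenger RNA levels were followed in mouse bone marrow macrophages that were exposed to RANKL, the cytokine that turns these cells into bone-resorbing osteoclasts. The members are all probes whose gene symbol in the authors' deposited comparison tables begins with Slc followed by a digit or by the letter o, without Slc4a2, Slc40a1 and Slco2b1. This gave 123 probes of 103 genes, among 7244 probes with a gene name and 25697 probes in all. The 7121 other named probes served as the background. That background is not free of solute carriers. It holds the 3 probes of the genes left out, and probes of 19 genes that have an Slc name only by current symbol, Slc35b1 among them. The member genes were sorted into classes by family number, and each class was named for the usual substrate of its families. Of these genes 21 were for amino acids and peptides, 6 for sugars, 5 for carboxylates such as lactate and 2 for nucleosides. Another 9 were for nucleotide sugars, 16 for inorganic ions, 13 for metals and 15 were mitochondrial Slc25 carriers. A further 13 were for vitamins, lipids, organic ions and others. Some members carry a substrate other than that of their class name, such as Slc6a4 (serotonin), Slc6a8 (creatine), Slc17a5 (sialic acid) and Slc16a10 (aromatic amino acids). The remaining 3, Slc9a3r1, Slc9a3r2 and Slc4a1ap, are partners of transporters by name and not transporters.

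Macrophages were grown from whole marrow of femurs and tibiae of male CD1 mice aged 2 months, which were wild type (WT) or Cox2 knockout (KO), and were expanded in M-CSF at 100 ng/ml. Cox2, encoded by Ptgs2, makes the precursor of prostaglandin E2 (PGE2). On day 1 the groups were WT with M-CSF alone (n = 4), WT with M-CSF and RANKL (n = 3) and KO with M-CSF and RANKL (n = 3), with each cytokine at 30 ng/ml where both were given. On day 3 all cells had M-CSF and RANKL, and the groups were WT (n = 4), WT with NS398, an inhibitor of Cox2, at 0.1 µM (n = 4), KO (n = 4) and KO with PGE2 at 1 µM (n = 4). How much M-CSF the cells without RANKL had, and the cytokine doses of day 3, are not given in the sources used here. No KO cells without RANKL were measured. Ptgs2 itself has no named probe here, and its level was not analysed.

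Transporters of this family work as gatekeepers. Most use the gradient of sodium, protons or a second solute to drive uptake or exchange, while the glucose carriers let sugar run down its gradient. In macrophages they supply cystine for glutathione, arginine for nitric oxide and polyamine synthesis, and glucose for glycolysis, and they take iron, zinc and copper in and out of the cell and its vesicles. Osteoclasts are rich in mitochondria and secrete acid, so carriers of fuel, phosphate and protons matter to them.

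RNA was measured on Illumina bead arrays as linear intensities that were normalized separately for each day, so no test was made between day 1 and day 3 levels. Arrays of a group correlated across probes at 0.993 to 0.995 on day 1 and 0.972 to 0.995 on day 3. Precision is set by the number of arrays. Replicates are described as biological, with no statement that they came from separate mice, so p-values measure the spread between these samples. In bulk cultures fewer cells of a type and less RNA per cell cannot be told apart. Of 10 macrophage markers 8 were named here, among them Csf1r and Adgre1. Their sums of intensity were between 149609 and 188608 on day 1 and between 49920 and 76881 on day 3. Single macrophage markers moved both ways within these sums. RANKL on day 1 called 3 of the 8 higher, Csf1r (0.96) and Cd14 (0.79) among them, and 4 lower, Mrc1 (-2.59) and Cd68 (-1.21) among them. KO against WT on day 1 called 2 higher and 3 lower. Of 10 osteoclast markers 8 were named. Their sums were 9782 to 11291 with M-CSF alone, 110638 to 115496 in WT with RANKL and 67152 to 93679 in KO with RANKL. Mmp9 and Ctsk gave 53.9% and 38.4% of the sum in WT with RANKL. RANKL called 7 of the 8 higher and 0 lower, and KO against WT on day 1 called 0 higher and 5 lower. Markers of other marrow cells moved too. Of 11 granulocyte markers 10 were named, with day 1 sums of 11171 to 11801 with M-CSF alone, 91653 to 92246 in WT with RANKL and 44368 to 60161 in KO. S100a8 alone gave 68.8% of that sum in WT with RANKL, and the list did not move one way. With RANKL 5 of 10 were higher and 4 lower, and in KO against WT 6 were higher, Ltf by 4.28 and Ngp by 3.07 among them, and 4 lower, S100a8 at -1.26 and Lcn2 at -1.91 among them, with a median log2 difference of 0.71. All 5 named stromal markers, of 12 listed, were higher in KO than in WT on day 1, with sums of 3516 to 4031 against 1513 to 1559. Of 4 mast cell markers only Hdc, the enzyme that makes histamine, was named, at 209 to 247 with M-CSF alone, 1654 to 1821 in WT with RANKL and 326 to 357 in KO, called higher with RANKL (2.91) and lower in KO (-2.36). No B cell, T and NK cell or erythroid marker was named. The lowest intensity of any probe was 116 on day 1 and 89.4 on day 3. A sum above 0 therefore does not show that a cell type was present. The part of these cell types in the results below was not tested.

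Differences below are of log2 intensity, and values after ± are standard errors unless marked SD. A probe was called at a Benjamini-Hochberg adjusted p under 0.05 in limma over all 17211 probes kept on day 1 or 18961 on day 3. All 123 member probes were kept on day 1 and 121 on day 3, where Slc15a2 and Slc6a13 fell below the filter. Names exist only for probes that the authors listed in a comparison table, so the share of other named probes is the background used for the members. The authors listed probes by a score of difference on these same arrays. Members and other named probes were thus both picked for a difference, and their shares beside all probes are not free of that choice. RANKL in WT on day 1 called 95 of 123 member probes (77.2%, 47 higher and 48 lower), where 75.8% of other named probes (34.3% higher and 41.5% lower) and 37.7% of all probes were called. KO against WT on day 1 called 94 (76.4%, 52 higher and 42 lower) against 70.2% (39.1% higher and 31.2% lower) and 33.8%. The median log2 difference of the members was -0.10 with RANKL and 0.14 in KO, beside -0.10 and 0.09 for other named probes and -0.02 and 0.02 for all probes. The family was thus called at a share near that of other named probes, and it moved in both directions. The results below are about which carriers moved.

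On day 3 KO against WT called 17 of 121 member probes (14.0%, 6 higher and 11 lower), beside 16.3% of other named (8.78% higher and 7.49% lower) and 6.37% of all probes. NS398 called 14 (11.6%, 4 higher and 10 lower), beside 15.1% (7.69% higher and 7.44% lower) and 5.94%. PGE2 in KO called 47 (38.8%, 28 higher and 19 lower), beside 32.9% (14.4% higher and 18.5% lower) and 13.5%, so that the rises made up 23.1% of the members. The median log2 differences of the members were -0.01, -0.05 and 0.03, beside 0.02, 0.01 and -0.01 for other named probes. The plot of genes by substrate class shows these differences for RANKL and for PGE2.

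**Figure D1:**
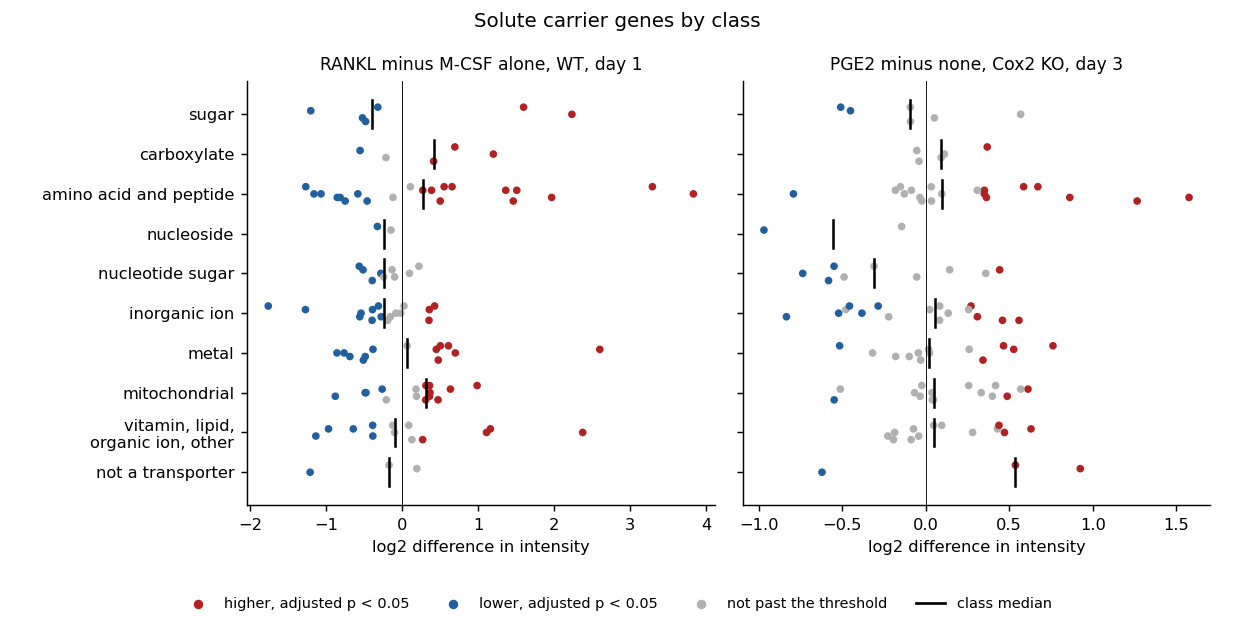
Log2 difference in intensity of each solute carrier gene, 1 probe per gene, for RANKL minus M-CSF alone in WT cells on day 1 (left, 103 genes) and PGE2 minus none in KO cells on day 3 (right, 101 genes), by substrate class. Slc11a1, of the metal class, is shown by its brightest probe, which sat near the array maximum on day 1. Red points were higher and blue points lower at an adjusted p under 0.05, grey points did not pass, and the black bar is the class median; the amino acid carriers reach furthest to the right in both panels, and the axes differ in range.

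The first question was what 1 day of RANKL did to WT cells, and which of those levels differed in KO cells with RANKL. These comparisons share the WT arrays with RANKL, so their values are given side by side. Amino acid and peptide carriers held the tallest rises. Of 21 genes, 11 rose with RANKL and 8 fell, and in KO 8 were higher than in WT and 10 lower. Of other named probes 34.3% rose and 41.5% fell with RANKL, and 39.1% were higher and 31.2% lower in KO. The classes are small, and the day 1 counts of each class below are to be read beside these shares. Slc6a12, which carries betaine and GABA, measured 202, 218, 197 and 198 with M-CSF alone, 2994, 3116 and 2591 in WT with RANKL and 380.1, 350.1 and 338 in KO with RANKL. Arrays of WT cells with RANKL stood far above all others, and the KO arrays lay a little above those with M-CSF alone. It was not above background with M-CSF alone, so the rise was at least 14.0-fold (limma adjusted p = 5.3e-18), and KO against WT gave a difference of -3.02 ± 0.10 (log2 ± SE; limma adjusted p = 1.6e-15). Here not above background means a detection p-value of 0.05 or more for the group in the authors' deposited tables, and the bound sets the dim group at its own value or at the dimmest detected probe, whichever is higher on each array.

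Slc7a11, the light chain of the cystine and glutamate exchanger that feeds glutathione synthesis, measured 1522, 1435, 1464 and 1231 with M-CSF alone, 12221, 16211 and 13230.1 in WT with RANKL and 3409, 3641 and 2938 in KO with RANKL. The groups did not overlap, and the KO arrays lay between the others. RANKL gave a difference of 3.29 ± 0.11 (log2 ± SE; limma adjusted p = 1.1e-15), and KO differed from WT by -2.06 ± 0.12 (SE; limma adjusted p = 1.2e-11). Slc7a2, a carrier of arginine and other cationic amino acids, measured 799, 722, 567 and 641 with M-CSF alone, 1853, 1971 and 1954 in WT with RANKL and 635, 825 and 576 in KO. The KO arrays overlapped those with M-CSF alone, and RANKL gave a difference of 1.51 ± 0.12 (log2 ± SE; limma adjusted p = 1.8e-09). A second, dimmer probe of Slc7a2 was above background only in WT with RANKL, at least 1.42-fold over M-CSF alone and at least 1.33-fold over KO. Further rises came from Slc6a13, a GABA carrier, at least 3.29-fold, the glycine carrier Slc6a9, at least 2.56-fold, and the serotonin carrier Slc6a4, at least 2.56-fold. All 3 were not above background with M-CSF alone or in KO, and they stood at least 3.14-fold, at least 2.19-fold and at least 2.33-fold higher in WT with RANKL than in KO.

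Other amino acid carriers went the opposite way. Slc6a6, the taurine carrier, was among the brightest members, with 53874, 52559, 53874 and 48227 under M-CSF alone, 22947, 24139 and 23004 in WT with RANKL and 52146, 53557 and 52559 in KO. The WT arrays with RANKL stood below all others, and KO and M-CSF arrays overlapped. RANKL gave a difference of -1.16 ± 0.08 (log2 ± SE; limma adjusted p = 2.6e-10), and KO lay 2.26-fold above WT. The creatine carrier Slc6a8 fell by 0.85 with RANKL and was higher in KO by 1.13 ± 0.10 (SE; limma adjusted p = 8.2e-09). Slc15a4, which carries peptides and histidine out of endosomes, fell with RANKL at both of its probes (-0.58 and -0.74), and both were higher in KO (0.76 and 0.84). Slc17a5, the lysosomal carrier of sialic acid, changed by -0.81 and 0.85. The peptide carrier Slc15a2 fell at least 2.27-fold, from 527, 426, 438 and 434 to 203, 175 and 190.1, and in KO it measured 265, 254 and 254, between the other groups. Slc7a5, the large neutral amino acid carrier, did not pass with RANKL (-0.12, limma adjusted p = 0.389) and was higher in KO (0.57, limma adjusted p = 2.1e-04).

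All 6 sugar carriers were called with RANKL, 2 higher and 4 lower, where 75.8% of other named probes were called. Slc2a1, the basal glucose carrier GLUT1, measured 6301, 4116, 4575 and 5864 with M-CSF alone, 14734, 16820.3 and 15167 in WT with RANKL and 5796, 6247 and 5764 in KO. The WT arrays with RANKL were above all others, and KO arrays lay within the range of those with M-CSF alone. RANKL gave a difference of 1.60 ± 0.12 (log2 ± SE; limma adjusted p = 7.1e-10) and KO against WT -1.39 ± 0.13 (SE; limma adjusted p = 2.5e-08). Slc2a6, a lysosomal hexose carrier, was at 1738 to 1995 with M-CSF alone, at 8222 to 9184 in WT with RANKL and at 2211 to 2384 in KO, with a difference of 2.23 ± 0.09 (log2 ± SE; limma adjusted p = 1.5e-14) for RANKL and -1.93 ± 0.09 (SE; limma adjusted p = 8.5e-13) for KO. Slc2a3, the glucose carrier GLUT3, ran against both. It measured 609, 465, 562 and 479 with M-CSF alone, 239, 242 and 207 in WT with RANKL, where it was not above background, and 519, 553 and 511 in KO. The fall with RANKL was at least 2.30-fold (limma adjusted p = 4.3e-09), and KO lay at least 2.31-fold above WT. Slc2a8, Slc37a2 and Slc45a4 fell by 0.52, 0.48 and 0.32 on the log2 scale.

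Among the carboxylate carriers Slc16a3, which exports lactate from glycolytic cells, moved with Slc2a1. It measured 186, 199, 193 and 240.3 with M-CSF alone, where it was not above background, 504, 450.4 and 452 in WT with RANKL and 211, 198 and 186 in KO, again not above background. The WT arrays with RANKL stood above the rest, at least 2.21-fold over M-CSF alone (limma adjusted p = 2.3e-09) and at least 2.32-fold over KO. The dicarboxylate carrier Slc13a3 rose at both of its probes, by 0.69 and 0.63, and both were lower in KO, at -0.63 and -0.61. Slc16a10, an aromatic amino acid carrier of the same family, fell by 0.55 with RANKL and was higher in KO by 0.56. Promoter windows of Slc2a1 and Slc16a3 are shown because these carriers of glucose and lactate rose together with RANKL and were lower together in KO. Each holds 250 bases before and 50 after the RefSeq start site (GRCm38.p6), read 5′ to 3′ on the strand of the gene. Capitals mark matches on either strand to ACGTG, the core of the hypoxia response element, TGACNNNGC, the core of the antioxidant response element, TGATGNAA, the element bound by ATF4 and its partners, TGACGTCA, the cAMP response element, TGANTCA, the AP-1 site, or a kappaB site.
Slc2a1, chr4:119108495-119108794, plus strand: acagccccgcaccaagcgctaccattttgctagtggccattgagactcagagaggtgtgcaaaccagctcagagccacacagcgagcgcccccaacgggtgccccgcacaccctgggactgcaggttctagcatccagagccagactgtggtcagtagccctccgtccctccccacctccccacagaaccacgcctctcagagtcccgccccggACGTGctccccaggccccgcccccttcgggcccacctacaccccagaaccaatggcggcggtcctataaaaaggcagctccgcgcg
Slc16a3, chr11:120948817-120949116, plus strand: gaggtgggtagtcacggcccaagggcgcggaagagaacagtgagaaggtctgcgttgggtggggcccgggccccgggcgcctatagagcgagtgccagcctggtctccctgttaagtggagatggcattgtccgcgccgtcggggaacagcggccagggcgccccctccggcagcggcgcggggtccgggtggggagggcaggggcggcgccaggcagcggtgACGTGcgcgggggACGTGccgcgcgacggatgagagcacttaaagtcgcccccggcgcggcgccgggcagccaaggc
The matches are to ACGTG, 1 in Slc2a1 at -36 from the start site and 2 in Slc16a3 at -27 and -14. This motif is found in 19.6% of 32851 promoter windows of that length and in 33 of 112 windows of member genes (29.5%), so a match is a description of these letters.

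Metal carriers split evenly with RANKL, 6 higher and 6 lower of 13, counted by the brightest probe of each gene. The 1 not called was Slc11a1, whose brightest probe sat near the array maximum. Its other 3 probes were called higher, as given below. Slc39a4, a zinc importer of the cell surface, measured 328, 265, 297 and 229 with M-CSF alone, 1726, 1717 and 1603 in WT with RANKL and 363, 339 and 366 in KO. Zinc importer signal in WT with RANKL was far above the rest, with a difference of 2.60 ± 0.10 (log2 ± SE; limma adjusted p = 2.8e-14) for RANKL and -2.24 ± 0.11 (SE; limma adjusted p = 1.8e-12) for KO. Its relatives Slc39a10 and Slc39a6, also zinc importers, fell with RANKL (-0.85 and -0.76) and were higher in KO (1.08 and 0.73). The zinc exporter Slc30a1 rose by 0.70, and the copper importer Slc31a1 by 0.61, with arrays at 2921 to 3243 under M-CSF alone, 4427 to 5181 in WT with RANKL and 2999 to 3392 in KO. Slc11a2, which carries iron, fell by 0.38 with RANKL and was higher in KO by 0.57.

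Of 16 carriers of inorganic ions 3 rose and 8 fell with RANKL, and in KO 9 were higher and 3 lower than in WT. Slc9a9, a sodium and proton exchanger of endosomes, measured 605, 619, 788 and 633 with M-CSF alone, 196, 186 and 201 in WT with RANKL, where it was not above background, and 537, 460.2 and 485 in KO. All 3 groups were apart, and KO lay between. The fall with RANKL was at least 3.29-fold (limma adjusted p = 6.5e-12). The potassium-dependent sodium and calcium exchanger Slc24a3 fell by 1.27 and was higher in KO by 0.42, which left it below M-CSF alone, at -0.85 ± 0.10 (SE; limma adjusted p = 3.8e-06). Slc9a3r2, a scaffold that ties transporters to the cytoskeleton, measured 546, 590.0, 628 and 681 with M-CSF alone, 259, 265 and 267 in WT with RANKL and 970.2, 871 and 882 in KO. It lay lowest in WT with RANKL and highest in KO, with a difference of 1.78 ± 0.10 (log2 ± SE; limma adjusted p = 6.4e-12) for KO. Of the 2 nucleoside carriers Slc29a1, the equilibrative carrier of the cell surface, was at 1304 to 1589 with M-CSF alone, at 1081 to 1172 in WT with RANKL, a fall, and at 2024 to 2270.0 in KO, above both, by 0.95 ± 0.10 (SE; limma adjusted p = 1.1e-07) against WT and by 0.62 ± 0.09 (SE; limma adjusted p = 3.4e-05) against M-CSF alone.

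Mitochondrial carriers rose in 8 of 15 cases and fell in 4 with RANKL, and in KO 4 were higher and 6 lower than in WT. The phosphate carrier Slc25a3, which supplies ATP synthase, rose from 5484, 7196, 7515 and 7363 to 14694, 12948 and 13082, with 6171, 6591 and 8125 in KO. The WT arrays with RANKL were above the rest, with a difference of 0.99 ± 0.12 (log2 ± SE; limma adjusted p = 5.3e-07) and -0.97 ± 0.12 (SE; limma adjusted p = 2.4e-06) in KO. Slc25a30 rose by 0.64 and was lower in KO, at -1.02 ± 0.09 (SE; limma adjusted p = 2.8e-08). The adenine nucleotide exchanger Slc25a5 rose by 0.47 and did not pass in KO (-0.19, limma adjusted p = 0.128), and the citrate carrier Slc25a1 rose at both of its probes (0.31 and 0.49). Slc25a13, an aspartate and glutamate exchanger, fell by 0.88.

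Nucleotide sugar carriers of the Golgi and the endoplasmic reticulum did not rise in any of 9 cases with RANKL and fell in 4, while in KO 5 were higher and 2 lower than in WT. With cyclic loess 1 rose and 3 fell with RANKL, and 3 were higher and 2 lower in KO. Slc35b4 and Slc35a2 fell by 0.56 and 0.51, and Slc35b3 fell at 2 of its 3 probes (-0.52 and -0.39). In the last class Slco4a1, an organic anion carrier known to take up thyroid hormone, measured 242, 247, 219 and 211 with M-CSF alone, 1240.4, 1345 and 1008 in WT with RANKL and 926, 862 and 786 in KO. The KO arrays sat near the WT arrays with RANKL and far from those with M-CSF alone. It was not above background with M-CSF alone, rose at least 5.19-fold with RANKL in WT and stood at least 3.74-fold above M-CSF alone in KO (limma adjusted p = 2.6e-11), while KO against WT gave -0.47 ± 0.11 (SE; limma adjusted p = 0.00200). Slco3a1, another organic anion carrier, rose by 1.16 and differed in KO by -1.09. Of the fatty acid carriers Slc27a4 was at 430.0 to 487 with M-CSF alone, rose to 981 to 993 in WT with RANKL and was at 448 to 473 in KO, and Slc27a1 fell by 0.97 and was higher in KO by 0.91. Slc19a1, the reduced folate carrier, fell by 0.64 and was higher in KO by 0.71.

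**Figure D2:**
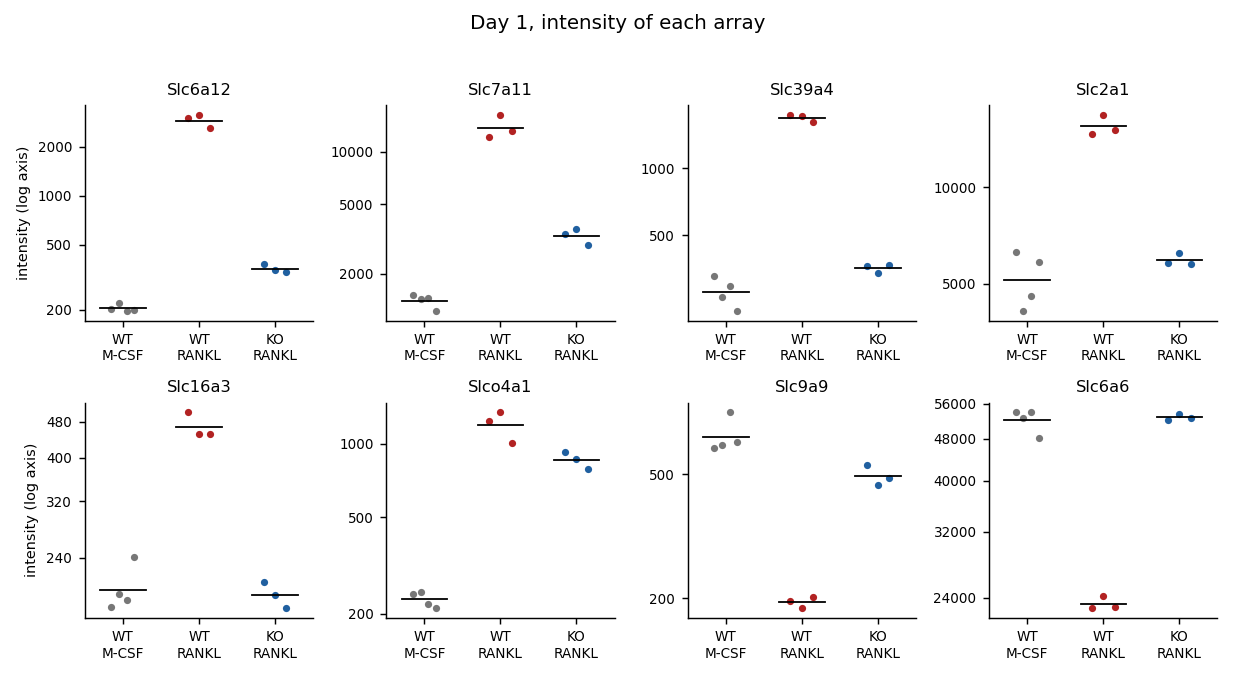
Intensity of each day 1 array on log axes for 8 solute carrier genes, in WT cells with M-CSF alone (n = 4), WT cells with RANKL (n = 3) and KO cells with RANKL (n = 3). Points are arrays and bars are geometric means; 6 genes are highest in WT with RANKL, and of these only Slco4a1 stays near that level in KO, while Slc9a9 and Slc6a6 are lowest in WT with RANKL.

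A further contrast took KO cells with RANKL minus WT cells that had only M-CSF. The contrast changes genotype and RANKL at once, and they cannot be told apart in it. It called 31 of 123 member probes (25.2%, 21 higher and 10 lower), beside 32.0% of other named probes (14.5% higher and 17.4% lower) and 15.7% of all probes. Besides Slco4a1, Slc7a11 lay above the level with M-CSF alone, by 1.24 ± 0.11 (SE; limma adjusted p = 4.2e-08), Slc6a12 at least 1.73-fold, and Slc38a2, a sodium-coupled neutral amino acid carrier, by 0.51 ± 0.08 (SE; limma adjusted p = 1.3e-04). Slc16a6, a carboxylate carrier, was above it at 1 of its 2 probes (0.61 ± 0.11, limma adjusted p = 3.6e-04) and did not pass at the other (0.14, limma adjusted p = 0.494). Slc2a1, Slc7a2, Slc27a4 and Slc25a3 did not pass, with log2 differences of 0.21, -0.01, 0.00 and 0.02. Slc24a3 and Slc15a2 were lowest against M-CSF alone, at -0.85 and -0.82.

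After 3 days the question was what the missing enzyme, its inhibitor and its product did to cells that all had RANKL. KO cells had less Slc7a11, Slc7a2, Slc2a6, Slc39a13, Slc25a10, Slc38a2 and Slc31a1 than WT cells, and more Slc35b1, Slc25a16, Slc11a1, Slc35a1 and Slc19a2. The Slc35a1 call was lost in 11 of 15 alternatives, median centring and cyclic loess among them, with adjusted p up to 0.168. Of 101 genes 5 were higher and 11 lower, beside 8.78% higher and 7.49% lower of other named probes. Slc7a11 measured 5340.1, 4836, 5242 and 4708 in WT, 2242, 1662, 1651 and 2363 with NS398, 2301, 1662, 2195 and 1773 in KO and 6514, 4738, 6304 and 6048 in KO with PGE2. The NS398 and KO arrays overlapped each other and lay below all arrays of WT and of KO with PGE2. KO against WT gave a difference of -1.36 ± 0.14 (log2 ± SE; limma adjusted p = 9.4e-06), NS398 against none -1.36 ± 0.14 (SE; limma adjusted p = 9.2e-06) and PGE2 against none 1.58 ± 0.14 (SE; limma adjusted p = 1.3e-06). Slc7a2 measured 393, 451, 465 and 482 in WT, 293, 269.9, 271 and 287 with NS398, 223, 205, 249 and 262 in KO and 588, 454, 629.7 and 591 in KO with PGE2. Here the KO arrays were below the NS398 arrays as well, and the log2 differences were -0.93 ± 0.10 (SE; limma adjusted p = 2.2e-05) for KO, -0.67 ± 0.10 (SE; limma adjusted p = 5.9e-04) for NS398 and 1.27 ± 0.10 (SE; limma adjusted p = 5.5e-07) for PGE2. The dim second probe of Slc7a2 did not pass in any of these (-0.01, 0.01 and 0.10).

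Slc7a8, which carries neutral amino acids with the same heavy chain as Slc7a11, measured 2791, 3119, 3220.2 and 2568 in WT, 1557, 1153, 1392 and 1909 with NS398, 1729, 1669.8, 2011 and 2111 in KO and 4938, 3025, 3838 and 2336 in KO with PGE2 at its brighter probe. NS398 and KO arrays were below all WT arrays, but KO did not pass the test (-0.64, limma adjusted p = 0.0593). NS398 gave -0.98 ± 0.19 (SE; limma adjusted p = 0.00428) and PGE2 0.86 ± 0.19 (SE; limma adjusted p = 0.00631), and the second probe gave -0.84 and 1.06. Slc38a2 was lower in KO, at -0.43 ± 0.12 (SE; limma adjusted p = 0.0455), and higher with PGE2 by 0.59 ± 0.12 (SE; limma adjusted p = 0.00424), while NS398 gave -0.01 (limma adjusted p = 0.987). Its KO call was lost in 12 of 15 alternatives, with an adjusted p of up to 0.163. Slc15a3, a peptide and histidine carrier of lysosomes, was higher with PGE2 by 0.67 ± 0.13 (SE; limma adjusted p = 0.00316). Of 19 genes of the amino acid and peptide class tested on day 3, 8 were higher and 1, Slc17a5, lower with PGE2. Among other named probes 14.4% were higher and 18.5% lower with PGE2.

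Slc31a1, the high-affinity copper importer, measured 2582, 3348, 3299 and 3095 in WT, 2081, 1601, 1603 and 2184 with NS398, 2268, 2158, 2359.8 and 2314 in KO and 3354, 2822, 2893 and 3550.3 in KO with PGE2. NS398 and KO arrays lay below every WT and PGE2 array, with a difference of -0.73 ± 0.12 (log2 ± SE; limma adjusted p = 7.6e-04) for NS398, 0.47 ± 0.12 (SE; limma adjusted p = 0.0132) for PGE2 and -0.43 ± 0.12 (SE; limma adjusted p = 0.0339) for KO, a call that 8 of 15 alternatives lost (adjusted p up to 0.112). Slc39a13, a zinc carrier of the Golgi and vesicles needed for connective tissue, measured 2439.8, 4155, 3772 and 2432 in WT, 1729, 1783, 1777 and 1921 with NS398, 1634, 1757, 2255 and 1712 in KO and 2808, 2957, 2747 and 4016 in KO with PGE2. WT and PGE2 arrays were above the others, with -0.77 ± 0.17 (SE; limma adjusted p = 0.0108) for KO, -0.79 ± 0.17 (SE; limma adjusted p = 0.00940) for NS398 and 0.76 ± 0.17 (SE; limma adjusted p = 0.00684) for PGE2. Its second probe ran the same way but passed with PGE2 only (0.67, limma adjusted p = 0.0457), a call lost in 10 of 15 alternatives. Slc39a4, at 248, 276, 238 and 255 in WT and 257, 260.3, 222 and 247 in KO, showed no call for KO on day 3 (-0.04, limma adjusted p = 0.891), and reached 368, 417, 347 and 298 with PGE2 (0.53 ± 0.10, limma adjusted p = 0.00231).

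Slc25a10, the mitochondrial dicarboxylate carrier, measured 614, 968, 906 and 664 in WT, 448, 492, 473 and 434 with NS398, 421, 501, 537 and 507 in KO and 749.9, 655, 683 and 934 in KO with PGE2. The groups fell into a higher pair, WT and PGE2, and a lower pair, with -0.66 ± 0.14 (SE; limma adjusted p = 0.00859) for KO, -0.75 ± 0.14 (SE; limma adjusted p = 0.00354) for NS398 and 0.61 ± 0.14 (SE; limma adjusted p = 0.00850) for PGE2. Slc27a4, at 265 to 318 in WT, 207 to 258 with NS398, 229 to 241 in KO and 301 to 345 with PGE2, gave -0.32 in KO, -0.34 with NS398 and 0.47 with PGE2, and 5 of 15 alternatives lost each of its first calls. Slc12a7, a potassium and chloride cotransporter, gave -0.40, -0.59 and 0.31, the last of them lost in 7 of 15. The phosphate importer Slc20a2 passed with NS398 (-0.42, limma adjusted p = 0.00640) and narrowly with PGE2 (0.27, limma adjusted p = 0.0471, lost in 12 of 15 alternatives), and did not pass in KO (-0.18, limma adjusted p = 0.280). Slc2a6 was lower in KO (-0.81 ± 0.19, limma adjusted p = 0.0142) but gave no call with NS398 (-0.39, limma adjusted p = 0.323) or PGE2 (0.57, limma adjusted p = 0.0564). Slc2a1 and Slc16a3 did not pass in KO, with NS398 or with PGE2, and Slc2a1 measured 2605 to 3582 in WT and 2949.7 to 3195 in KO. Slc16a3 was dim with PGE2, at 193 in 1 array and a median of 139.6 in the others. It has no day 3 detection p-value, so whether it was above background on day 3 is not known.

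**Figure D3:**
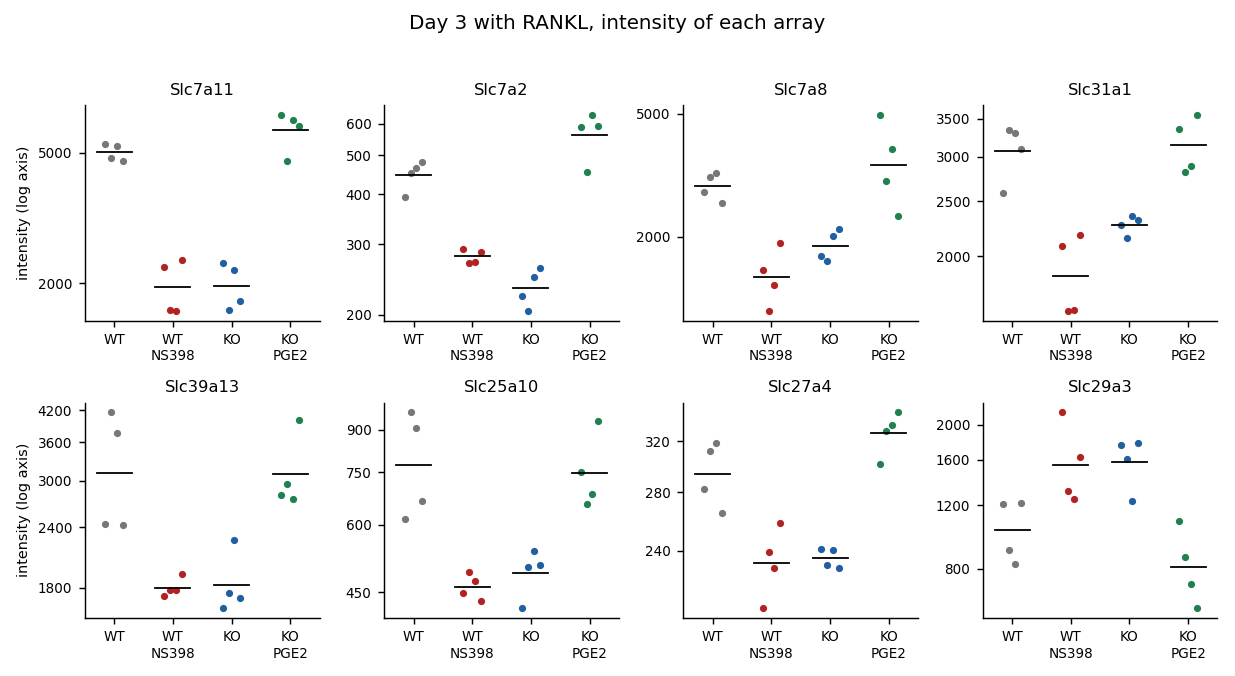
Intensity of each day 3 array on log axes for 8 solute carrier genes in cells with RANKL, in WT, WT with NS398, KO and KO with PGE2 (n = 4 each). Points are arrays and bars are geometric means; in the 6 genes from Slc7a11 to Slc25a10 and in Slc27a4 the means of NS398 and KO cells lie below those of WT and PGE2 cells, and Slc29a3 shows the opposite order.

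PGE2 also lowered members, 15 of 101 genes, of which 1, Slc9a3r2, is not a transporter. By probes this was 15.7% of members, beside 18.5% of other named probes. Slc29a3, a nucleoside carrier of lysosomes, measured 1206, 902, 828 and 1215 in WT, 2165, 1309, 1245 and 1636 with NS398, 1759, 1611, 1229 and 1786 in KO and 1084, 864, 727 and 624 in KO with PGE2. The PGE2 arrays lay below all KO arrays and all NS398 arrays, with a difference of -0.97 ± 0.20 (log2 ± SE; limma adjusted p = 0.00401), while KO and NS398 did not pass (0.63, limma adjusted p = 0.0805 and 0.60, limma adjusted p = 0.103). Slc17a5, the lysosomal sialic acid carrier, went from 964, 876, 675 and 1008 in KO to 498, 547, 513 and 458 with PGE2 (-0.79 ± 0.16, limma adjusted p = 0.00390). Slc41a2, a magnesium carrier, went from 1510.5, 1261, 1466 and 1715 to 1011, 748, 780.1 and 806 (-0.83 ± 0.16, limma adjusted p = 0.00230). In both genes the groups did not overlap. Of 9 nucleotide sugar carriers 3 were lower and 1 higher with PGE2, with Slc35a3 at -0.74 ± 0.17 (SE; limma adjusted p = 0.00785). Slco2a1, the prostaglandin transporter that takes PGE2 up into cells, was not above background in KO cells, at 134, 125, 128 and 133, and measured 193, 186, 144 and 187 with PGE2, at least 1.28-fold more (limma adjusted p = 0.00624). Slc9a3r1, a scaffold of transporters, was higher with PGE2 by 0.93 ± 0.28 (SE; limma adjusted p = 0.0364), a call lost in 7 of 15 alternatives, among them the letter r of some sample titles as a term. That letter, whose meaning the labels do not give, marks 3 of 4 PGE2 arrays and 1 of 4 KO arrays.

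NS398 in WT cells and PGE2 in KO cells are compared with different controls and share no array. All 10 member probes that were lower with NS398, of 9 genes, were higher with PGE2, which is 100% of the first list and 35.7% of the 28 probes of the second. Among other named probes 356 of 522 that were lower with NS398 were higher with PGE2 (68.2%). The genes were Slc7a11, Slc7a2, Slc7a8, Slc39a13, Slc25a10, Slc31a1, Slc12a7, Slc27a4 and Slc20a2. Across the alternatives the shared number ran from 7 to 11 and its share of the NS398 list from 66.7% to 100%, the lowest share with the letter r as a term, and 7 of 10 were shared without the PGE2 array of replicate 24r. Of 4 member probes higher with NS398, 2, of Slc35a1 and Slc9a3r2, were lower with PGE2, against 407 of 539 other named probes (75.5%). Across 121 member probes the differences under NS398 and PGE2 correlated at r = -0.797, and across 7012 other named probes at -0.772, where probes share their arrays and depth of signal and are not replicates. Both sets hold only probes that the authors listed for a difference in a comparison of these arrays, so neither the overlap nor r is free of that choice. Granulocyte and stromal markers and Hdc moved with this pattern, while macrophage and osteoclast markers were mixed. Granulocyte sums were 2994 to 4424 in WT, 1579 to 2336 with NS398, 1509 to 1729 in KO and 5510 to 9904 in KO with PGE2, where of 9 tested 2 were lower with NS398, 3 lower in KO and 6 higher with PGE2. Stromal sums were 870.0 to 1224, 713 to 747, 772 to 871 and 1222 to 1506 in the same order of groups, where of 5 tested 2 were lower with NS398, 1 lower in KO and 3 higher with PGE2. S100a8 alone gave 68.8% of the granulocyte sum in KO with PGE2. Hdc was lower with NS398 (-0.59) and in KO (-0.60) and higher with PGE2 (0.39), with a dim mean of 210 in WT and 139 in KO. Of 8 macrophage markers 0 were higher and 1 lower with NS398, 3 higher and 1 lower in KO, and 1 higher and 2 lower with PGE2. Of 8 osteoclast markers 0 were higher and 1 lower with NS398, 0 higher and 1 lower in KO, and 1 higher and 2 lower with PGE2. The part of these cells in the carrier pattern was not tested. The plot of NS398 against PGE2 shows each member probe.

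**Figure D4:**
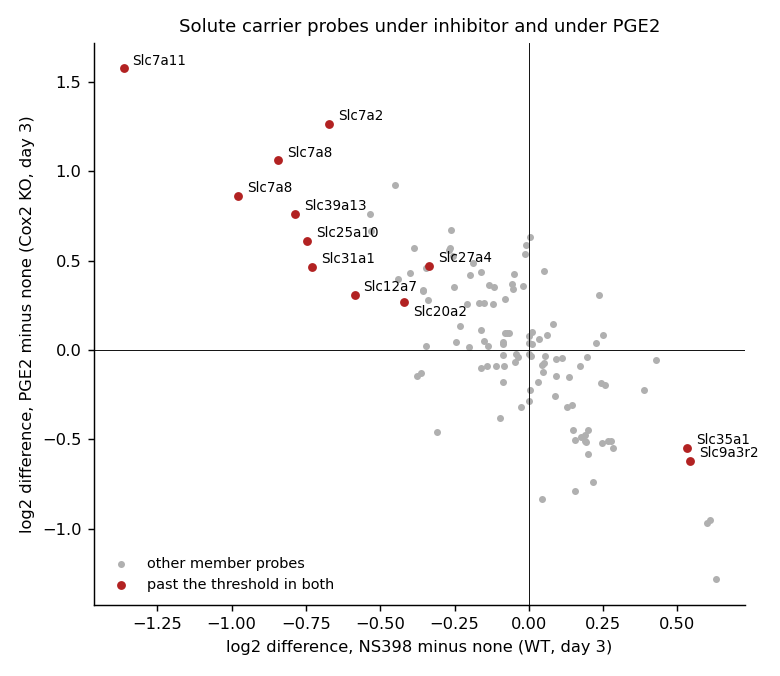
Log2 difference of each of 121 solute carrier probes with NS398 in WT cells (x axis) and with PGE2 in KO cells (y axis) on day 3, with probes past an adjusted p of 0.05 in both in red. The 10 named probes at upper left were lower with the inhibitor and higher with PGE2, Slc7a11 the furthest, and 2 probes at lower right were the reverse.

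Promoter windows of 3 of these 9 genes are shown, since the genes fell with the inhibitor and rose with the product of the enzyme; the windows and the capitals are as for Slc2a1 above.
Slc7a11, chr3:50443564-50443863, minus strand: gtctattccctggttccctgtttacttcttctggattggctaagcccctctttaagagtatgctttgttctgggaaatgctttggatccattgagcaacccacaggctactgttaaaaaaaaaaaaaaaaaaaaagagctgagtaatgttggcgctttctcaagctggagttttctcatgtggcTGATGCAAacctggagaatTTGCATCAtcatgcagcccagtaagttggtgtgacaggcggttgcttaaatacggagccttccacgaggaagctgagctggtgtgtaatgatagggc
Slc31a1, chr4:62360451-62360750, plus strand: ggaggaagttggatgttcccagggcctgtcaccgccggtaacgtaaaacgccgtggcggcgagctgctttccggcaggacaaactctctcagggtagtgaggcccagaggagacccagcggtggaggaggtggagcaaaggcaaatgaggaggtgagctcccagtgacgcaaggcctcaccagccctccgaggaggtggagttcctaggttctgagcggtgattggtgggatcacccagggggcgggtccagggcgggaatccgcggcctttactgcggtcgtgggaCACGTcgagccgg
Slc39a13, chr2:91070266-91070565, minus strand: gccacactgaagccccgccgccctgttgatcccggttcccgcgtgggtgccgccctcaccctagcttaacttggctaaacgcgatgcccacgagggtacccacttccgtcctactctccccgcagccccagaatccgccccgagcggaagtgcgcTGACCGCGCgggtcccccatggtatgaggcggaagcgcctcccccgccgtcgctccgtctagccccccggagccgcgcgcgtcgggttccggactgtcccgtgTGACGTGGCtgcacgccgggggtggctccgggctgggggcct
Slc7a11 holds TGATGNAA at -66 and, on the other strand, at -47, a motif of 3.97% of all windows and 4.46% of member windows. Slc39a13 holds TGACNNNGC at -95 and 9, a motif of 12.4% of all and 17.0% of member windows, and its second match overlaps an ACGTG. Slc31a1 holds ACGTG on the other strand at 38. The full cAMP response element TGACGTCA stood in 1 of 112 member windows (0.893%) against 1.79% of all windows, TGANTCA in 6.25% against 7.81%, and a kappaB site in 8.04% against 4.51%. The GC box GGGCGG, not capitalised, stood in 62.5% of member windows against 35.7%. The 112 windows belong to 78 member genes.

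KO cells with PGE2 were set against WT cells, and KO cells against WT cells with NS398. The first called 2 of 121 member probes (1.65%, beside 3.12% of other named probes with 1.68% higher and 1.44% lower, and 1.20% of all probes), and 11 were higher and 9 lower at an unadjusted p under 0.05. Slc39a4 was higher (0.48 ± 0.10, limma adjusted p = 0.0246), a call lost in 7 of 15 alternatives, and Slc9a3r2, at 334, 426, 466 and 313 in WT and 253, 229, 259 and 269 in KO with PGE2, was lower (-0.59 ± 0.11, limma adjusted p = 0.0102). The 10 probes named above gave log2 differences from -0.09 to 0.51 in it, Slc7a11 0.22 ± 0.14 (SE; limma adjusted p = 0.626). KO against NS398 called 1 (0.826%, beside 1.93% of other named probes with 0.970% higher and 0.956% lower, and 0.738% of all probes), with 11 higher and 9 lower at an unadjusted p under 0.05. This was Slc9a3r2, at 602, 551, 507 and 554 with NS398 and 392, 420.0, 368 and 372 in KO (-0.51 ± 0.11, limma adjusted p = 0.0409), a call lost when any array of either group was left out. A difference that misses the threshold does not show that knockout and inhibitor acted alike, and for Slc35b1, at 1.11 ± 0.28 (SE; limma adjusted p = 0.102), the groups did not overlap.

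Slc11a1, the NRAMP1 carrier that moves iron and manganese out of the phagosome, has 4 probes, which can be set against each other. With RANKL on day 1 probe ILMN_2674884 went from 13272, 14694, 13355 and 14249.6 to 26518, 22382 and 21779, with 15087, 13217 and 16152 in KO. The WT arrays with RANKL were above the rest, with 0.76 ± 0.10 (SE; limma adjusted p = 1.6e-06) for RANKL and -0.67 ± 0.10 (SE; limma adjusted p = 2.6e-05) for KO. Probe ILMN_2692797 gave 0.94 and -0.79, ILMN_2983516 gave 0.34 and -0.12 (limma adjusted p = 0.390), and ILMN_2675811 did not pass in either (0.07 and -0.01). The last probe read 65204 to 67016 with M-CSF alone and 67868 to 70809.7 in WT with RANKL, close to the array maximum of 71707, where signals can be saturated. On day 3 the KO calls were on the other probes, and upward. ILMN_2983516 measured 8345, 8991, 8191 and 8245 in WT and 13073, 12096, 13033 and 11684 in KO, apart (0.56 ± 0.14, limma adjusted p = 0.0262), and ILMN_2675811 was higher too (0.47 ± 0.13, limma adjusted p = 0.0367), while the probes that had been lower on day 1 gave 0.87 (limma adjusted p = 0.0985) and 0.69 (limma adjusted p = 0.143) without passing. With PGE2 all 4 were lower, at -1.28, -0.95, -0.51 and -0.45, the last lost in 10 of 15 alternatives. Each of the KO calls on day 3 was lost in 7 of 15 alternatives, with adjusted p up to 0.0778 for ILMN_2983516 and 0.136 for ILMN_2675811.

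**Figure D5:**
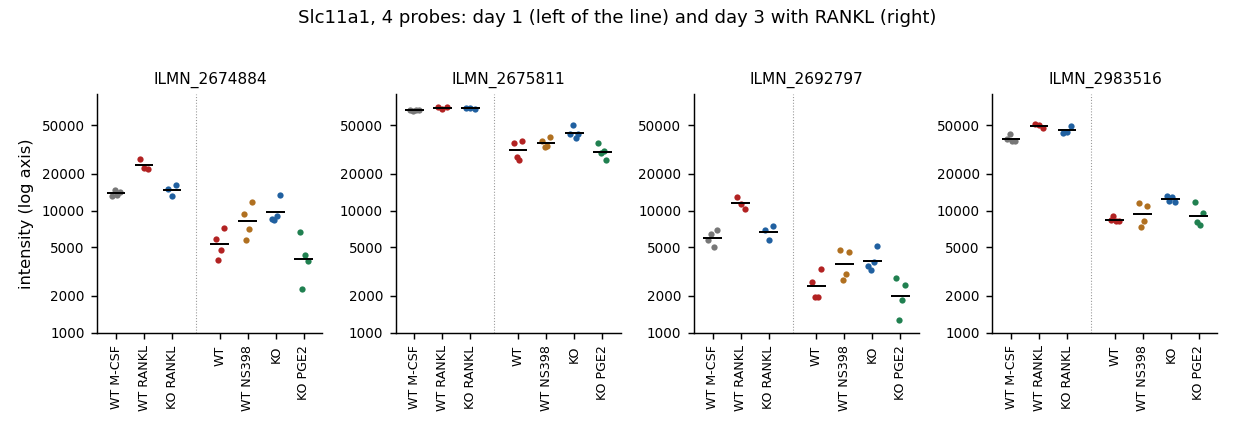
Intensity of each array on a log axis for the 4 probes of Slc11a1, in the day 1 groups left of the dotted line and the day 3 groups, all with RANKL, right of it. Points are arrays and bars are geometric means; on day 1 ILMN_2674884 and ILMN_2692797 are higher in WT than in KO cells with RANKL, on day 3 all 4 KO means lie above the WT means, and ILMN_2675811 sits near the array maximum on day 1.

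Slc35b1, a nucleotide carrier of the endoplasmic reticulum, was higher in KO on both days at its member probe but not at another probe of the gene. The member probe, ILMN_1246740, measured 2850.4, 3025 and 3152 in WT and 4506, 4623 and 5442 in KO with RANKL on day 1, with 2576, 3935, 3112 and 3388 under M-CSF alone, and 1095, 625, 448 and 902 in WT and 2066, 2129, 1234 and 1816 in KO on day 3. The KO arrays were above the WT arrays on both days, by 0.69 ± 0.12 (SE; limma adjusted p = 1.7e-04) and 1.29 ± 0.28 (SE; limma adjusted p = 0.00859). NS398 (0.18, limma adjusted p = 0.854) and PGE2 (-0.49, limma adjusted p = 0.299) did not pass. A second probe of the gene, ILMN_2495289, carries the older symbol Ugalt2 in the files and is no member. It measured 3252 ± 103 (SD, n = 3) in WT and 3427 ± 782 (SD, n = 3) in KO on day 1, and 563 ± 94.4 (SD, n = 4) and 594 ± 165 (SD, n = 4) on day 3. Its KO differences were 0.05 on both days (limma adjusted p = 0.804 and adjusted p = 0.937), so the 2 probes of Slc35b1 disagree.

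Of 15 genes with several probes none was called in opposite directions by its probes in any of the 8 comparisons, and between 0 and 4 had some but not all probes called. The KO comparisons of the 2 days share no array. Of 11 member probes that KO lowered on day 3, 7 had also been lower on day 1 (63.6%, and 17.1% of the 41 tested on both days and lower on day 1), beside 288 of 522 other named probes (55.2%). These were Slc7a11, Slc7a2, Slc2a6, Slc25a10, Slc25a26, Slc31a1 and Slc27a4. Of 6 higher on day 3, 1, Slc35b1, was higher on day 1, beside 61.7% of other named probes. RANKL on day 1 and PGE2 on day 3 share no array either, and of 28 member probes higher with PGE2 16 had been higher with RANKL (57.1%, and 34.8% of those higher with RANKL), beside 55.5% of other named probes.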

How the data were processed

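The deposited value table holds linear intensities of Illumina bead arrays, 10 for day 1 and 16 for day 3, and the submitters' processing notes name GenomeStudio. Arrays of a day share their minimum, maximum and nearly their median, so the authors' intensities were normalized between arrays within each day. Per the file headers, the authors' 5 comparison tables hold the mean intensity of each group, a detection p-value, a DiffScore and a ratio of group means. Only their symbols and detection p-values were used, and not the DiffScore, which is the authors' score of difference, or the ratio. The smallest absolute DiffScore in each table was 13.0, so a probe had a name only if it reached such a score in a comparison. All members and all other named probes were picked in this way from the same arrays. Where a table gave no detection p-value for a group no bound was set. Groups came from sample titles.

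Intensities were taken to log2 as deposited. A probe was kept where it passed the 40th percentile of its array on at least as many arrays as the smallest group holds, which left 17211 and 18961. limma 3.58.1 in R 4.3.3 (lmFit and eBayes) was fitted to each day with 1 mean per group, and p-values were adjusted by Benjamini-Hochberg over all kept probes. On simulated data with 200 of 18961 probes changed, the PGE2 fit recovered 57.0% at a log2 change of 0.5 and 92.0% at a log2 change of 1. The simulated noise was independent between probes, and the real PGE2 comparison called 2561 probes. Recovery depends on the share of changed probes, so these figures do not give the recovery in the real comparison. Symbols were matched to RefSeq GRCm38.p6, where 122 of 123 member probes had a current symbol and 1 a synonym. For genes with several probes the brightest stands for the gene. Genes were named by the size of their change within a comparison or class, as genes with several probes, or from a preset list of carriers known in macrophages. The members, classes and lists were chosen with earlier results of these data known. Comparisons that share a group share its arrays, as RANKL and KO share the WT cells with RANKL on day 1, KO and NS398 share WT cells on day 3, and KO and PGE2 share KO cells on day 3. Alternatives were no filter, cyclic loess, median centring, array weights, a trended robust prior, only the compared groups, the letter r in titles as a term, and each array left out. The result of 1 member is not reported here.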

Additional observations from a re-analysis of the deposited data

Results flagged for a closer look

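In groups of 4 arrays, a single array lay far from the other 3 for 10 of 176 probe and group pairs among the genes described (5.68%), where chance alone gives about 1 in 20. With M-CSF alone, 1 array read 527 for Slc15a2 against a median of 434 in the others, 1 read 65204 for Slc11a1 probe ILMN_2675811 against 66876, and 1 read 5484 for Slc25a3 against 7363. With NS398, 1 array read 17318 for Slc6a6 against 11887 and 1 read 143 for Slco2a1 against 123. In KO cells on day 3, 1 array read 13529 for Slc11a1 probe ILMN_2674884 against 8616. In KO cells with PGE2, 1 array read 148 for the dim probe of Slc7a2 against 158, 1 read 193 for Slc16a3 against 139.6, 1 read 122 for Slc2a3 against 129 and 1 read 144 for Slco2a1 against 187.

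For 3 probes of the genes described, every KO array lay on one side of the WT arrays on day 1 and on the opposite side on day 3. Slc38a2 differed by 0.23 on day 1 and by -0.43 on day 3 (log2, KO minus WT). Slc11a1 probe ILMN_2674884 differed by -0.67 and 0.87, and Slc35a1, the CMP-sialic acid carrier, by -0.42 and 0.46. On day 3 the difference of the Slc11a1 probe did not pass, and the calls of Slc38a2 and Slc35a1 were lost in 12 and 11 of 15 alternatives. The day 1 call of Slc38a2 was lost in 8 alternatives, cyclic loess among them, with a limma adjusted p of up to 0.212. The days were normalized separately, and the difference between them was not tested.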

How the results depend on the processing

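Counts of member probes called under RANKL, KO on day 1, KO against M-CSF alone, NS398 and PGE2 stayed within 1.5 times under every alternative that kept all arrays. The split by direction depended on the scaling. With cyclic loess the member calls were 51 higher and 44 lower for RANKL, and 45 higher and 44 lower for KO on day 1. Over all kept probes RANKL went from 2928 higher and 3559 lower to 3313 and 3081. KO on day 1 went from 3257 higher and 2561 lower to 2654 and 2946. For KO on day 3 the 17 member calls became 36 with array weights and 11 with a trended robust prior. For KO with PGE2 against WT the 2 calls became 5 with the letter r as a term and 0 with only the compared groups, and for KO against NS398 the 1 call became 4 with array weights, 0 with a trended robust prior, and 2 with the letter r or with only the compared groups; the cause was not tested. Leaving out 1 array at a time gave 89 to 97 calls for RANKL, 88 to 92 for KO on day 1, 25 to 33 for KO against M-CSF alone, 11 to 21 for KO on day 3, 11 to 15 for NS398, 32 to 44 for PGE2, 1 to 6 for KO with PGE2 against WT, 0 for KO against NS398 and 7 to 11 for the probes lower with NS398 and higher with PGE2. KO on day 3 had 11 calls without KO replicate 7, KO replicate 8 or WT replicate 2. KO with PGE2 against WT had 1 call without PGE2 replicate 21r or WT replicate 2, 3 or 6, and 6 without WT replicate 4. Over 301 pairs of a called probe and a comparison, 3661 of 3981 alternative values kept the call, 320 lost it with the same direction, and 0 changed direction. Of these pairs 68 lost the call in some alternative. For KO on day 3 this was so for 10 of 17 probes and 63 of 255 values. No paired analysis was possible because the groups compared share no replicate number.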
